A study of Mus musculus with 4 samples.

Results

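The mucin genes measured were 8 of the 55203 genes in the 4 deposited expression tables: the gel-forming, secreted mucins Muc2, Muc5b and Muc6 and the membrane-bound mucins Muc1, Muc3, Muc4, Muc13 and Muc20. They were chosen by name, not by their level, and the level of a gene was the sum over its transcripts. Of the 8, 7 carried these names in the tables. Muc6 had no name there and was found by its gene identifier, ENSMUSG00000118661, through the GENCODE vM39 annotation. The study set bulk RNA sequencing of intestinal tissue beside spatial imaging of transcripts. It held 4 libraries from adult male wild-type (WT) C57BL/6NTac mice of 8 to 12 weeks, kept specific-pathogen-free (SPF). The RVC group, 2 libraries, carries in its labels 4 mM of ribonucleoside vanadyl complex, an inhibitor of RNA-degrading enzymes. The other group, 2 libraries, was labelled fresh frozen (FF).

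The label of the tissue was ileum, while the protocol that accompanies all 4 libraries, the RVC rinse included, names distal colon. Markers of the colon summed to 3088 to 4241 FPKM (fragments scaled to the length of the transcript and to the mapped fragments of the library) over 11 genes, and markers of the ileum to 39.4 to 73.4 over 11 genes. Of 8 Paneth cell markers, which belong to the small intestine, 4 or 5 were listed at 0 in each library, and the 8 summed to 44.4, 4.08, 5.11 and 15.9 FPKM in RVC 1, RVC 2, FF 1 and FF 2, most of it Ang4 in RVC 1 and FF 2. Each library had a batch number of its own, so a difference between groups and one between batches cannot be told apart. Nothing in the labels says whether the libraries came from separate mice. The p-values therefore measure only the spread between these samples, which may be technical. FF 2 was the deepest library, and the other 3 had 72.6% to 81.8% of its depth. Between the groups, 10 of 10 smooth muscle markers were higher in both RVC libraries, against 26.5% of all genes tested, with sums of 1193 and 1757 FPKM in RVC and 746.8 and 798.3 in FF. The same held for 8 of 8 endothelium, 5 of 5 plasma and B cell and 6 of 7 macrophage markers that were tested. Of 6 enteroendocrine markers tested, 5 were lower in both RVC libraries, against 26.6% of all genes. The part of these cell types in the results below was not tested. In bulk tissue, fewer cells of a type and less RNA per cell cannot be told apart.

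Mucins are very large glycoproteins whose central stretches, rich in threonine, serine and proline, carry dense O-linked sugars. Goblet cells of the colon secrete MUC2, which assembles into the net of the mucus layer. Membrane mucins are anchored in the apical surface of epithelial cells, where they form the glycocalyx, and several of them also signal. MUC5B is best known from airways and salivary glands and MUC6 from the stomach and the glands of the duodenum.

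Repeats can be read directly from the coding sequences of the mucins. The most repeated stretch of 48 bases is shown for the 7 of the 8 genes that repeat one, whatever its codons. Repeats rich in threonine and serine are what mucins are known for. The sequences are from GRCm39 with the transcript models of GENCODE vM39, 5′ to 3′ in frame, with threonine codons (ACN) in capitals, at the position of the first copy.
Muc2, exon 29 of 48, chr7:141291991-141292038 (plus strand): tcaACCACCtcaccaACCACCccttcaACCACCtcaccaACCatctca
Muc3, exon 3 of 13, chr5:137189911-137189958 (minus strand): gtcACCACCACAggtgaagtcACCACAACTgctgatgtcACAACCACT
Muc4, exon 2 of 25, chr16:32570922-32570969 (plus strand): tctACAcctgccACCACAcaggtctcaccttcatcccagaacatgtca
Muc13, exon 2 of 12, chr16:33619401-33619448 (plus strand): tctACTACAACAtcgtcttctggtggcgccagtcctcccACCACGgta
Muc1, exon 2 of 7, chr3:89137400-89137447 (plus strand): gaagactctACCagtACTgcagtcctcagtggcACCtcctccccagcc
Muc6, exon 31 of 33, chr7:141226016-141226063 (minus strand): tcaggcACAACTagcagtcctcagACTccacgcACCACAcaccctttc
Muc5b, exon 31 of 49, chr7:141411859-141411906 (plus strand): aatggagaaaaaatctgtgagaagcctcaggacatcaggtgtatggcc
In Muc2, the secreted mucin of goblet cells, the stretch was found at 18 positions, some of which overlap, in coding sequence that repeated best at 24 bases. The Muc3 stretch was found at 22 positions with a best period of 234 bases. Muc6 had 9 positions at a best period of 519 bases, Muc13 had 6 at 81 bases, Muc4 had 8 at 372 bases and Muc1 had 2 at 60 bases. The most repeated stretch of Muc5b, at 6 positions, held no threonine codon and no serine codon, so it is not a repeat of the kind that carries the sugars. In Muc20 no stretch of 48 bases occurred more than once.

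Threonine codons made up 43.3% of the codons of Muc3, the highest share among 20108 coding genes compared. The share was 27.2% in Muc2 (rank 4), 21.9% in Muc6 (rank 7), 20.4% in Muc4 (rank 8) and 17.7% in Muc20 (rank 10). It was 12.9% in Muc5b, 12.2% in Muc1 and 10.6% in Muc13, against a median of 5.23% over all coding genes. Only 1.56% of coding genes held any repeated stretch of 48 bases, and 7 of the 8 mucins did. The exon that held the first copy of the most repeated stretch was 7029 of 13916 bases in Muc2, 12159 of 14091 in Muc3, 8484 of 12361 in Muc4 and 10491 of 15593 in Muc6. It was 8019 of 14964 bases in Muc5b and 1304 of 2252 in Muc1, and in these 6 genes it was the longest exon of the transcript. In Muc13 it was shorter, 645 of 2942 bases, and the second longest.

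**Figure D1:**
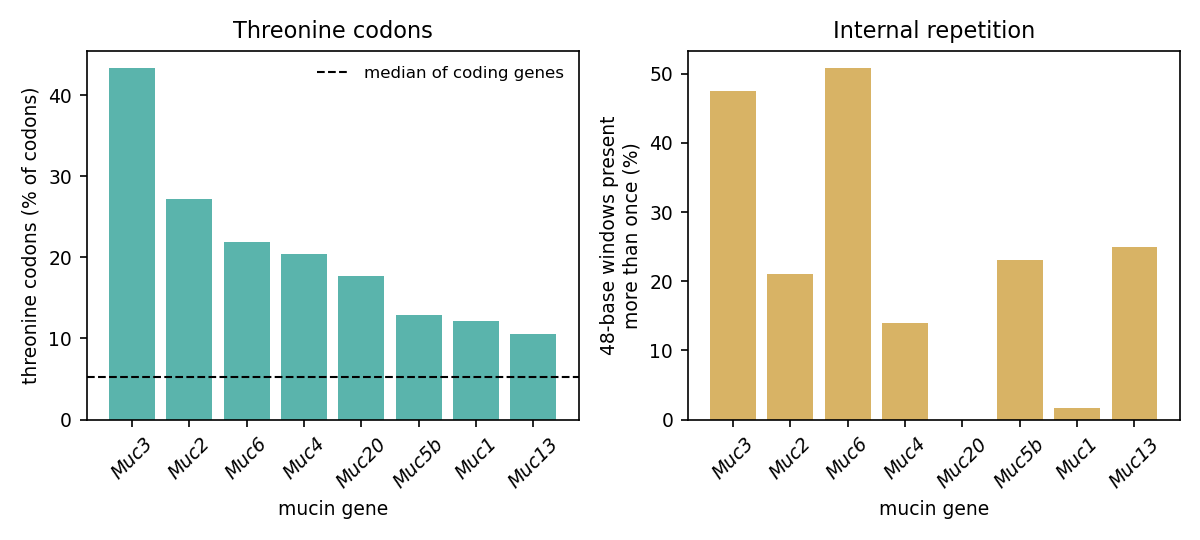
Left, threonine codons as a percent of all codons in each of the 8 mucin genes, with the median over coding genes (5.23%) as a dashed line. Right, the percent of 48-base windows of the coding sequence that occur more than once, from 0 in Muc20 to 50.8% in Muc6.

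Among the membrane mucins, Muc13 and Muc3 stood far above the rest. Muc13 (chr16:33614407-33640304, plus strand), a short membrane mucin of the intestinal surface, had 687.5 FPKM in RVC 1, 681.0 in RVC 2, 684.9 in FF 1 and 575.1 in FF 2, which placed it between rank 89 and rank 97 among the genes of each library. Only FF 2 lay apart from the other 3 libraries. Its mean was 657.1 FPKM ± 54.8 (SD over the 4 libraries of both groups, n = 4).

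Muc3 (chr5:137163770-137202830, minus strand), which GENCODE vM39 calls Muc17, had a value in a single library. In RVC 2 it had 1327 FPKM, rank 47 in that library, 1.95 times the level of Muc13 and 9.31 times that of Muc2 there. Of this, 1217 FPKM belonged to the long coding transcript (the authors' confidence bounds 1166 to 1267) and 110.6 to a transcript of 955 bases that lies at the end of the gene and has no annotated coding sequence (bounds 102.6 to 118.5). In RVC 1, FF 1 and FF 2 both transcripts carried the status HIDATA, with which Cufflinks marks a locus with too many fragments to estimate, and were listed at 0. Those 3 entries are missing values, not low ones, so Muc3 has no spread over libraries and no comparison between groups. The exons of Muc3 share 140 bases with Gm40348 on the opposite strand, whose part in the RVC 2 value was not tested. Close neighbours bear mucin names, and whether their sequences resemble that of Muc3 was not tested. Muc3a had 10.4, 10.65, 6.816 and 13.12 FPKM in RVC 1, RVC 2, FF 1 and FF 2, and Gm31160, named Muc12 in GENCODE vM39, had 0.796, 0.562, 1.148 and 1.208. Any reads shared between these 3 genes could have been divided in other ways, so their levels are uncertain. The neighbours were named after their values were seen.

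Muc2 (chr7:141276583-141308430, plus strand, 48 exons) had 176.4 FPKM in RVC 1, 142.6 in RVC 2, 138.9 in FF 1 and 301.9 in FF 2. The other 3 libraries ran from 138.9 to 176.4 FPKM, and FF 2 was 2.17 times as high as FF 1, the lowest. The mean was 189.9 FPKM ± 76.5 (SD, n = 4), and its rank ran from 202 in FF 2 to 453 in FF 1. The authors' confidence bounds were narrow, 137.6 to 140.1 in FF 1 and 300.3 to 303.5 in FF 2. The gap between these libraries thus exceeded the error of the estimate within each library. So did the smaller gap between RVC 1 (bounds 175.0 to 177.7) and RVC 2 (141.4 to 143.8). Muc2 made up 20.0%, 17.0% and 16.5% of the summed FPKM of the 7 mucins measured in all libraries in RVC 1, RVC 2 and FF 1, and 33.6% in FF 2. Muc13 made up most of the rest, and the ratio of Muc13 to Muc2 fell between 3.9 and 4.93 in those 3 libraries and was 1.9 in FF 2.

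Muc4 (chr16:32555015-32602754, plus strand), a large membrane mucin that binds the receptor ERBB2, had 11.32, 9.877, 11.58 and 18.18 FPKM in RVC 1, RVC 2, FF 1 and FF 2, a mean of 12.74 ± 3.7 (SD, n = 4). As for Muc2, FF 2 was the high library. Of its 7 transcripts, the long coding one of 12361 bases held 71.2% to 74.9% of the level. A transcript of 1206 bases at the end of the gene, without annotated coding sequence, held 24.4% to 28.1%.

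Muc1 (chr3:89136364-89140688, plus strand), a membrane mucin with a signalling tail, had 7.946 FPKM in RVC 1, 3.945 in RVC 2, 5.186 in FF 1 and 3.246 in FF 2. Its highest library was RVC 1 and its lowest FF 2, whereas FF 2 was the highest library of Muc2. The mean was 5.081 ± 2.07 (SD, n = 4). At least 91.9% of it came from the transcript of 2242 bases in every library.

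Muc20 (chr16:32597793-32617805, minus strand), a small membrane mucin known mainly from kidney, had 0.238, 0.155, 0.195 and 0.319 FPKM. The ends of Muc20 and Muc4 overlap on opposite strands, and they share 381 exon bases. Muc4 also shares 79 exon bases with Gm60686 and 8 with Gm34825 on the opposite strand, whose part was not tested. Muc20 was at 0.021, 0.0157, 0.0168 and 0.0175 times the level of Muc4 in RVC 1, RVC 2, FF 1 and FF 2. Whether the counting used strand is not given in the sources used here, so reads of Muc20 and Muc4 over the shared bases could not be told apart.

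The other gel-forming mucins were at or near 0. Muc6 (chr7:141213373-141241641, minus strand) had 0.0893, 0.0337, 0.0495 and 0.0749 FPKM in RVC 1, RVC 2, FF 1 and FF 2. It shares 94 exon bases with Ap2a2 on the opposite strand, whose part in these values was not tested. Muc5b (chr7:141392807-141426821, plus strand) had 0.00732, 0.00416, 0.00543 and 0.00993 FPKM, and the authors' lower confidence bound was 0 in all libraries but FF 2. Muc5ac, the mucin of the gastric surface that lies between Muc2 and Muc5b, was listed at 0 in all 4 libraries. Markers of the stomach and of Brunner glands were near 0 as well, with sums of 0 to 0.407 FPKM over 8 genes.

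**Figure D2:**
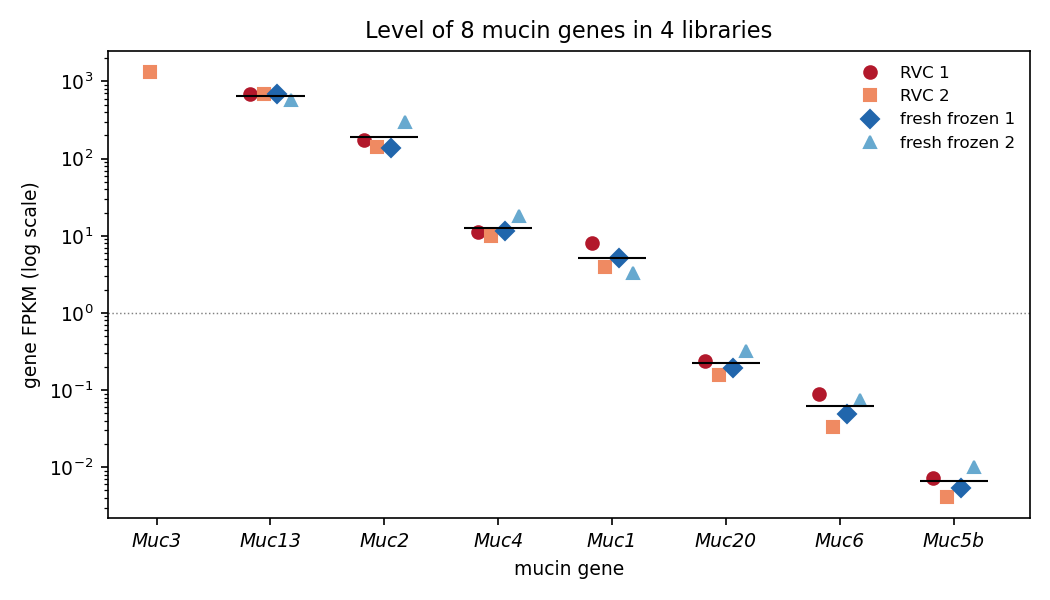
Gene FPKM (log scale) of the 8 mucin genes in the 4 libraries. Each symbol is a library, black lines are means over 4 libraries, and the dotted line marks 1 FPKM. Muc3 has a symbol for RVC 2 alone because its other entries are missing.

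The order Muc13, Muc2, Muc4, Muc1, Muc20, Muc6, Muc5b held in 4 of 4 libraries. No pair of neighbours in this order had overlapping ranges: the lowest Muc4 value (9.877 FPKM) was above the highest Muc1 value (7.946), which was the narrowest gap as a ratio. FPKM is scaled to transcript length, so these levels are per transcript length. The order differed for FPKM times transcript length in kilobases, which follows the number of fragments: Muc2, the longer gene, then stood above Muc13 in RVC 1 (2454 against 2023) and FF 2 (4201 against 1692), but not in RVC 2 (1984 against 2004) or FF 1 (1932 against 2015). Muc6 then stood above Muc20 in RVC 1 and FF 1. Muc3 stood above Muc13 in RVC 2, and its place in the other 3 libraries is unknown.

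Muc6, Muc2, Muc5ac and Muc5b lie within 1 cluster on chromosome 7, so genes at 0 or near 0 flank Muc2 on both sides. The 250 bases before the annotated starts of Muc2, Muc6 and Muc5b are shown because their levels differ so widely, from GRCm39, 5′ to 3′ on the strand of the gene.
Muc2, chr7:141276333-141276582 (plus strand): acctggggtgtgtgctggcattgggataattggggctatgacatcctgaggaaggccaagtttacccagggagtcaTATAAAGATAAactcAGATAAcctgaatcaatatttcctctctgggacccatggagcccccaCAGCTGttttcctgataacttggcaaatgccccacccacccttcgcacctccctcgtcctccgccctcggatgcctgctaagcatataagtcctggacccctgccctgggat
Muc6, chr7:141241642-141241891 (minus strand): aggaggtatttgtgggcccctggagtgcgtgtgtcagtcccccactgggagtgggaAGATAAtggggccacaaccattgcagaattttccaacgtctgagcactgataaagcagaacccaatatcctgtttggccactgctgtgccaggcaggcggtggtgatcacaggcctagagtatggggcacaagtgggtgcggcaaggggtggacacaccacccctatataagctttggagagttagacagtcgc
Muc5b, chr7:141392557-141392806 (plus strand): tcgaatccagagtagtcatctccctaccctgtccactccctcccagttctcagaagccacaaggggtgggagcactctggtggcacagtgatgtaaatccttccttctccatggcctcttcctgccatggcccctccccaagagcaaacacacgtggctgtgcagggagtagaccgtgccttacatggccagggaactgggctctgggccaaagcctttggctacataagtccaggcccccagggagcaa
Capitals mark matches on either strand to the letters of 5 motifs. They are TTTATG for the core of the CDX motif, TATAAA for the promoter box of that name, AGATAA for factors of the GATA family, CAGCTG for an E-box and TGTTTAC for factors of the FOXA family. The Muc2 window held the TATA letters 1 time, those of GATA 2 times and the E-box 1 time, with the TATA match overlapping the first GATA match. The Muc6 window held GATA 1 time and the Muc5b window held none of the 5. Over 21373 windows of the same length, 10.1% held the CDX letters, 11.9% those of the TATA box, 9.72% GATA, 11.9% the E-box and 2.79% FOXA. The TATA match of Muc2 lay upstream of its E-box match, not next to the start. Only exact letters were searched, so the similar TATAAG, close to the starts of both Muc2 and Muc6, stayed in lower case. Matches did not follow level over the other mucin windows. Those of Muc3, Muc4 and the main Muc13 transcript held none of the 5. The windows of Muc5ac, listed at 0, and of Muc20 each held FOXA 1 time. The Muc1 window held TATA 1 time, and that of the minor Muc13 transcript held CDX 1 time. The matches describe letters only, and their part in the levels was not tested.

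**Figure D3:**
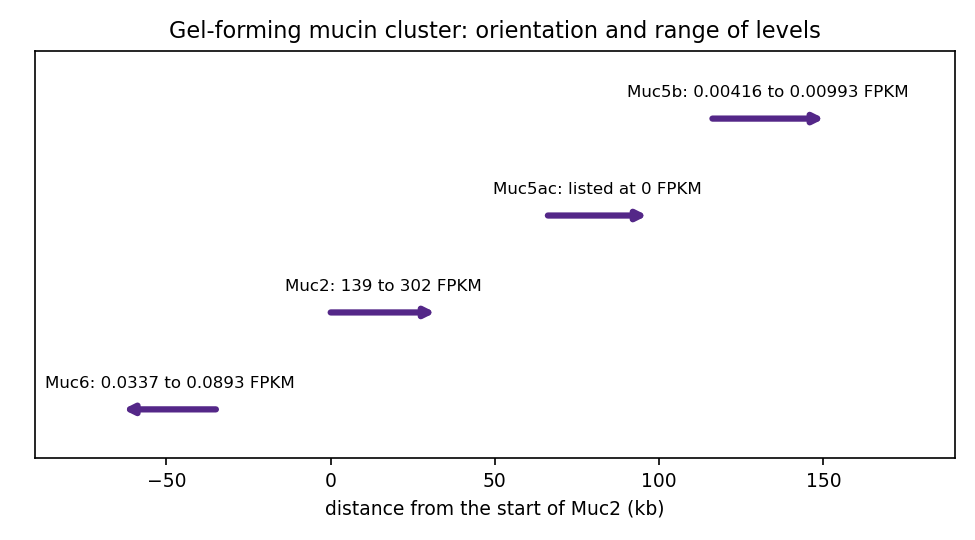
The 4 gel-forming mucin genes of chromosome 7 drawn to scale as arrows in the direction of transcription, with distance from the start of Muc2 in kilobases on the horizontal axis. The range of FPKM over the 4 libraries stands above each arrow, with Muc2 at 139 to 302 and its neighbours below 0.1.

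The comparison of RVC with FF asks whether the 2 ways of handling tissue give different mucin levels. None of the 4 mucins that could be tested (Muc1, Muc2, Muc4 and Muc13, those with a mean of at least 1 FPKM and complete values) passed a Benjamini-Hochberg adjusted p of 0.05 in limma, and none had an unadjusted p under 0.05. Of all 13771 genes tested, 5 passed (0.0363%), and 18.4% had an unadjusted p under 0.05. Muc5b, Muc6 and Muc20 were under the minimum level and Muc3 had missing values, so these 4 were not part of the count.

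Muc4 differed most in units of its error. It was lower in RVC by 0.42 on the log2(scaled FPKM + 1) scale (log2 difference -0.42, SE 0.21, limma adjusted p = 0.316), with group means of 10.61 ± 1.06 and 14.88 ± 4.87 scaled FPKM (SD, n = 2 each). The groups did not overlap, as for 53.2% of all genes and 26.6% in this direction, but RVC 1 (11.35) and FF 1 (11.43) were almost level. Without FF 2 the log2 difference was -0.10, and without FF 1 it was -0.74.

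Muc2 had a log2 difference, RVC minus FF, of -0.36 (SE 0.33, limma adjusted p = 0.569), and the groups overlapped. Its sign rested on FF 2: without that library the difference was 0.21, and without FF 1 it was -0.94. For Muc1 the log2 difference was 0.38 (SE 0.29, limma adjusted p = 0.495), again with overlapping groups, and -0.05 without RVC 1. Without RVC 2 it was 0.81 and without FF 1 it was 0.64.

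Muc13 had a log2 difference of 0.13 (SE 0.14, limma adjusted p = 0.626). After scaling, both RVC libraries (689.6 and 679.6 scaled FPKM) lay above both FF libraries (676.0 and 579.5), as for 26.5% of all genes in this direction. In the deposited FPKM the groups overlapped, with FF 1 between the RVC libraries, and the log2 difference was 0.02 without FF 2 and 0.24 without FF 1. Its minor transcript Muc13-202, which starts upstream of the main one, had 9.696 and 11.59 FPKM in RVC and 2.486 and 5.996 in FF. That is 0.363% to 1.7% of the gene. Its log2 difference was 1.23 (SE 0.36, limma adjusted p = 0.264 over 24080 transcripts), and its unadjusted p was under 0.05, as for 15.6% of transcripts. Its groups did not overlap, as for 50.4% of all transcripts tested. An adjusted p under 0.05 was reached by 0.00415% of them. In GENCODE vM39 the exons of Muc13 share 305 bases with Gm15657 on the opposite strand. Over its 4 transcripts with values, Gm15657 had 5.475, 6.356, 7.736 and 4.482 FPKM in RVC 1, RVC 2, FF 1 and FF 2. GENCODE vM39 holds further transcripts of this gene, so the shared bases and these levels do not cover the same set. The part of Gm15657 in the values of Muc13-202 was not tested.

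Muc2 and Muc4 had 1 high library, FF 2, and Muc1 had its own, RVC 1. On the log2(scaled FPKM + 1) scale, Muc2 in FF 2 was 1.00 above the mean of the other 3 libraries, higher than 99.7% of all genes tested in that library, and Muc4 was 0.70 above it (99.3%). Muc13 was below it by 0.23 (log2 difference -0.23) and Muc1 by 0.60 (-0.60), where only 1.39% of genes were lower. Muc1 in RVC 1 was 0.83 above the other 3, higher than 99.3% of genes.

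Transcript length moved with FF 2. Relative to the other 3 libraries, the median log2 difference of genes in FF 2 was -0.06 for 4278 genes of at least 300 and under 2000 bases and 0.14 for 289 genes of 10000 bases or longer, of which 76.8% were above 0. Muc2 and Muc4 are both in the longest class, and in it no gene had a larger difference in FF 2 than Muc2, and 3 had a larger one than Muc4. The part of transcript length in their values was not tested.

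**Figure D4:**
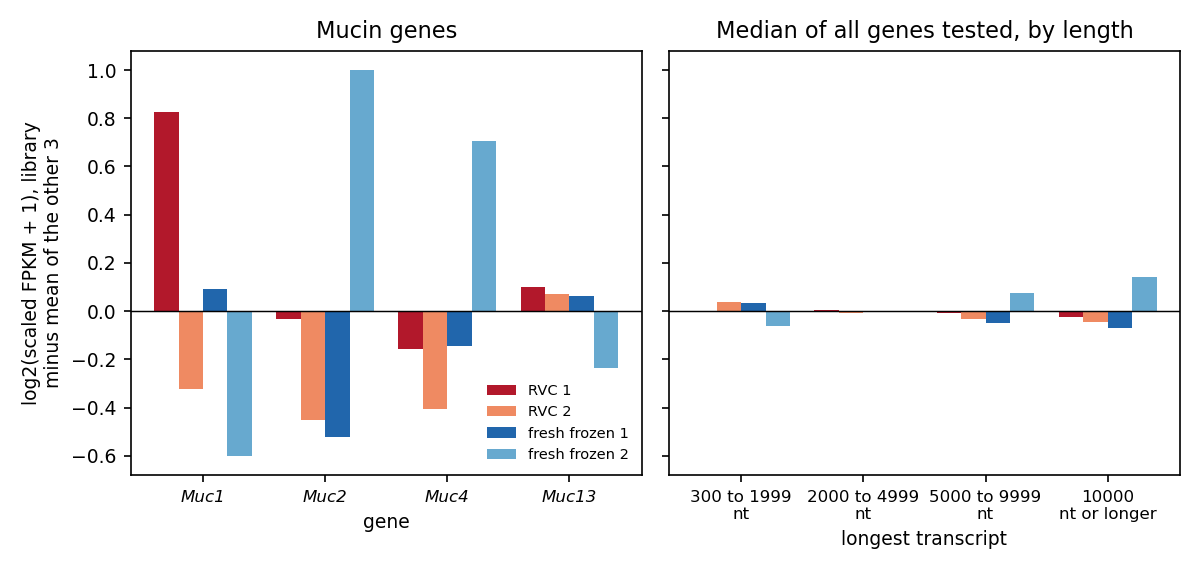
Log2(scaled FPKM + 1) of each library minus the mean of the other 3. Left, Muc1, Muc2, Muc4 and Muc13; right, medians of all genes tested in 4 classes of transcript length. In fresh frozen 2, Muc2 stands at 1.00 and Muc4 at 0.70, against 0.14 for genes of 10000 nt or longer.

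Goblet cell markers were high in both FF 2 and RVC 1, whereas Muc2 was high in FF 2. Of 17 goblet cell markers, 16 were above the mean of the other 3 libraries in FF 2, with a median log2 difference of 0.22 and a highest value of 0.45, against 1.00 for Muc2. In RVC 1, 12 of 17 were above the mean of the other 3, with a median of 0.18 and a highest value of 1.65, against -0.03 for Muc2. Of all genes tested, 49.8% were above the mean of the other 3 in FF 2 and 49.9% in RVC 1. FF 2 and RVC 1 each held the highest value of 8 markers, and the markers summed to 18630, 15350, 15790 and 17430 FPKM in RVC 1, RVC 2, FF 1 and FF 2. Muc2 was at 0.0202, 0.0192, 0.0184 and 0.0355 times the level of Zg16, a lectin of goblet cell granules, in RVC 1, RVC 2, FF 1 and FF 2. Against Clca1, a protease of the mucus, it was at 0.0481, 0.0598, 0.0536 and 0.0998, and against Agr2, the isomerase needed to fold MUC2, at 0.341, 0.233, 0.196 and 0.407. FF 2 had the highest of each of these ratios. Markers of absorptive colonocytes were lower in FF 2: 13 of 15 were below the mean of the other libraries and 11 of 15 were lowest there. Their median log2 difference was -0.33. Muc13 was also lower in FF 2, where 14.7% of all genes tested were lower still. The part of these cell types in the mucin values was not tested.

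The genes whose levels over the 4 libraries were most like those of Muc2 were Mptx1, Mptx2 and Gpr160, out of 5332 genes with a mean of at least 10 FPKM. Mptx1, a pentraxin of the intestinal epithelium, had 1341, 1142, 1291 and 2192 scaled FPKM in RVC 1, RVC 2, FF 1 and FF 2. Its root mean square difference from Muc2, after centring on the log2 scale, was 0.143, against a spread of 0.457 in Muc2 itself. The longest transcripts of Mptx1, Mptx2 and Gpr160 had 799, 794 and 2523 bases. The part of transcript length in this likeness was not tested. Muc13 was most like Gm4202, Ctsd and Pink1, at differences of 0.0031 to 0.0062, but its own spread was 0.102 and likeness over 4 libraries is a description only.

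Among the remaining mucins, Cd164, a sialomucin of many cell types, was the most abundant, with 56.1, 62.5, 71.6 and 66.4 FPKM in RVC 1, RVC 2, FF 1 and FF 2. Emcn, the endomucin of endothelium, had 2.51, 2.753, 1.449 and 1.421 FPKM, a log2 difference of 0.58 (SE 0.14, limma adjusted p = 0.139). Markers of endothelium moved the same way: 8 of 8 were higher in both RVC libraries, against 26.5% of all genes tested, and their part in the Emcn value was not tested. Muc16 had 1.474, 1.35, 1.677 and 1.556 FPKM. Muc15 and Muc21 were listed at 0 in all libraries, and Muc19, Mucl1, Mucl2 and Mucl3 stayed under 0.1 FPKM.

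Genes that act on mucins were not called either. In each of the following lists 0 genes passed the adjusted p of limma, and counts at an unadjusted p under 0.05 are read against 9.38% of all genes higher and 8.99% lower in RVC, with a median log2 difference of 0.01 over all genes. Of 27 genes of mucin O-glycosylation, 1 was higher and 6 were lower, and the median log2 difference was -0.15. C1galt1, the enzyme that makes the core 1 sugar, had 26.76, 30.54, 42.0 and 44.58 FPKM in RVC 1, RVC 2, FF 1 and FF 2, a log2 difference of -0.58 (SE 0.12, limma adjusted p = 0.129). Slc35a1, the Golgi transporter of CMP-sialic acid, had 22.43, 27.28, 35.89 and 37.53 FPKM (log2 difference -0.55, limma adjusted p = 0.134). St3gal4, a sialyltransferase, and the sulfate transporter Slc26a2 were the most abundant of the list, at 246.7 to 392.3 and 414.8 to 445.9 FPKM.

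Of 21 genes of mucin folding, packing and the mucus layer, 2 were higher and 2 lower, with a median of 0.04. Cftr, the chloride and bicarbonate channel that hydrates mucus, had 10.02, 10.32, 15.96 and 24.56 FPKM (log2 difference -0.89, SE 0.20, limma adjusted p = 0.129). Tgm2, a transglutaminase, had 10.49, 11.04, 6.716 and 6.927 FPKM (log2 difference 0.59, limma adjusted p = 0.129). Lypd8, which keeps flagellated bacteria off the epithelium, and Zg16 were the most abundant, and Lypd8 was lowest in FF 2, at 6743 FPKM against at least 10020 elsewhere.

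Of 12 partners and sheddases of membrane mucins, 4 were higher and 0 lower, with a median log2 difference of 0.25. Erbb2, the receptor bound by MUC4, had 34.45, 34.72, 25.46 and 24.62 FPKM (log2 difference 0.46, SE 0.10, limma adjusted p = 0.131), the opposite sign to Muc4. Src, a kinase that phosphorylates the tail of MUC1, had 39.59, 36.1, 25.2 and 28.64 FPKM. Of the transcription factors known to regulate mucin genes, Hnf4a and Klf4 were the most abundant, at 150.4 to 188.7 and 201.4 to 240.0 FPKM.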

How the data were processed

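Total RNA of 4 intestinal samples was depleted of ribosomal RNA and sequenced in pairs, per the labels' protocols. TopHat 2.1.1 aligned the reads to GRCm39 and Cufflinks 2.2.1 estimated levels, at default settings, per the series' design text and the submitters' processing notes. The deposited values were FPKM per transcript with confidence bounds, a status and coverage (a signal of reads per base), per the file headers. FPKM is relative to the fragments of the library, and Cufflinks shares reads among transcripts by a likelihood, so overlapping and repeated sequence makes values uncertain. Read totals are unknown. Relative depth was taken from coverage divided by FPKM (median), and no counting interval was computed.

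Gene FPKM was the sum over transcripts, and entries with a status other than OK were missing. Libraries were scaled by median ratio (factors 0.992 to 1.013). Log2(scaled FPKM + 1) was compared with limma 3.58.1 in R 4.3.3 (trend, two-sided, no covariate), for genes with a mean of at least 1, a longest transcript of at least 300 nt and complete values, with Benjamini-Hochberg adjustment over all genes. A fold on this scale understates changes of low genes. Transcripts were scaled and tested in the same way. The script was tested on simulated data. Files start positions at 0, and 1 was added. Sequences came from GRCm39 and GENCODE vM39. Galnt2 and Tubb3 were not analysed here, and 1 gene of the list of regulators is not reported here.

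The mucins and lists were chosen with earlier results of these data known. All 8 mucins, the other mucins, and from each list at most the 2 most abundant genes and the 2 of smallest p were named. The alternatives were other pseudocounts, scalings, filters, a replicate block and leaving out each library. The replicate block shares only sample numbers.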

Additional observations from a re-analysis of the deposited data

Results flagged for a closer look

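With the 4 libraries taken as 1 set, the Muc13 value of 575.1 FPKM in FF 2 was farther from its nearest neighbour (681.0 FPKM) than a Dixon test at 95% allows, with a gap of 0.942 of the whole range. The gap was 0.794 of the range for Muc4 and 0.77 for Muc2, both highest in FF 2 and both within the limit. Chance marks about 1 in 20 such groups, and 7 genes were examined.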

How the results depend on the processing

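The order of the mucins did not change under any alternative run for it, and each mean level moved by less than the SD over libraries. Several of these outcomes were fixed in advance. Leaving out a library cannot move a mean by as much as the SD, and no transcript of these mucins was shorter than 300 nt. Because no neighbouring ranges overlapped, leaving out a library could not change the order. Of 60 log2 differences of Muc1, Muc2, Muc4 and Muc13 under 15 alternatives, 58 kept their sign. The exceptions were Muc2 without FF 2 (0.21) and Muc1 without RVC 1 (-0.0501). Filters on the level, length or status of genes, the trend and a replicate block cannot change these differences. Many of the 58 signs were therefore fixed in advance. Leaving out each library gave a range from -0.935 to 0.21 for Muc2, from -0.0501 to 0.811 for Muc1, from -0.738 to -0.102 for Muc4 and from 0.0181 to 0.24 for Muc13. The number of genes called, 5, was 0 with no filter on low values, 0 when the gene sum omitted transcripts shorter than 300 nt, 0 without the trend and 2 at a minimum of 5 FPKM. It ran from 14 to 30 when each library was left out. The 1 called transcript became 0 with no filter, 6 at a minimum of 5 FPKM and 7 with no length minimum, and 0 to 0 when each library was left out. The genes of the lists called, 0 (54 of 179 at an unadjusted p under 0.05, against 18.4% of all genes), ran from 0 to 3 when each library was left out. Where a group is left with 1 library, that library is assumed to vary like the other group.

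With a replicate block on the sample number, 112 of 13771 genes and 5 of 179 list genes were called, none of them Muc1, Muc2, Muc4 or Muc13. The correlation of deviations between samples of the same number was -0.134, so the numbers are not shown to pair the samples. Both pairs had to give the same value, because the libraries of a group deviate equally from their mean in opposite directions. A crossed replicate block, added after seeing the data, called 12 genes. The cause of these changes was not tested. With no filter on low values, the log2 differences were -0.07 for Muc20, -0.0028 for Muc5b and -0.0011 for Muc6 (limma adjusted p 0.742, 0.967 and 0.995), at levels where the pseudocount of 1 exceeds the FPKM. Read totals are unknown.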
